A study of Mus musculus with 3 samples.

Results

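The cells described here are islet macrophages, 250 of the 28374 cells kept from 3 single-cell libraries of mouse islets. The libraries, 1 for each group, came from ASF-KO, SC35-KO and WT mice 9 months old, and ASF and SC35 are older names of the splicing factors Srsf1 and Srsf2. The deleted exons, the cells that lost them, the Cre line, the strain, the sex and the number of animals in each library are not stated in the labels. A cell was kept with at least 500 genes, at least 1000 UMIs (counted RNA molecules) and at most 20% of UMIs from mitochondrial genes. It was taken as a macrophage when at least 3 of C1qa, C1qb, C1qc, Csf1r, Adgre1, Cd68 and Ms4a7 were detected with at least 5 UMIs in sum. Both insulin genes together had to stay under 20% of its UMIs, and Gcg, Sst and Ppy each under 5%. These values chose the cells, so the cells were selected on them and levels of those 7 genes are a description. With 1 library in each group there is no replicate check, and no test could be run: p-values and standard errors are not given. Intervals are 95% exact intervals and cover counting error only.

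Islet macrophages live beside the hormone cells and capillaries of the islet. In mice they are known to present antigen on MHC class II, to take up material shed by beta cells, to make interleukin-1 and to secrete growth factors. Complement C1q is made by tissue macrophages, and its 3 chains, encoded by C1qa, C1qb and C1qc, assemble into 1 secreted recognition protein. Srsf1 and Srsf2 are SR proteins, which bind exons and guide splice site choice in most cell types.

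The targeted genes did not mark the libraries. In the macrophages Srsf1 had 3 UMIs in the ASF-KO-labelled library, 10 in the SC35-KO-labelled one and 19 in WT, or 33.3, 37.9 and 32.2 CPM (UMIs per 1000000 counted). Srsf2 had 13, 44 and 53 UMIs in the same order, or 144, 167 and 89.9 CPM. In all other kept cells Srsf1 stood at 132 CPM in the ASF-KO-labelled library and 95.2 CPM in WT, and Srsf2 at 93.1 CPM in the SC35-KO-labelled one and 73.5 CPM in WT. Neither gene was lower in the library named for its loss. Reads from the 3' end report on a deletion only where it removes that end or lowers the transcript, so these counts do not check which exons were lost. Both knockouts are therefore called by their labels.

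The cells carried a macrophage profile that went beyond the genes that chose them. At or above 50 CPM in each library, 250 genes stood at 10 or more times the level in all other kept cells. Apoe, a carrier of lipids, led them with 43377 CPM in the ASF-KO-labelled library, 38255 CPM in the SC35-KO-labelled one and 42414 CPM in WT. Next came Cd74, the invariant chain of MHC class II, then Tmsb4x, which binds actin monomers, and the class II chains H2-Eb1, H2-Ab1 and H2-Aa. C1qa had 5895, 6523 and 5572 CPM, C1qb 6895, 5947 and 4963 CPM, and C1qc 3264, 3176 and 2964 CPM in the libraries labelled ASF-KO and SC35-KO and in WT. Lyz2, the lysozyme gene of myeloid cells and no part of the choice, had 3686, 3260 and 4416 CPM. The rest of the leading 20 held Ctss, a protease of class II processing, Tyrobp and Fcer1g, signalling adaptors of activating receptors, and B2m, the light chain of MHC class I. It also held Cd52, Ms4a7, Cyba (a subunit of the phagocyte oxidase), Sh3bgrl3, Laptm5 and Aif1. Among receptors, Csf1r, which binds the growth factor that keeps macrophages alive, had 566, 588 and 696 CPM, and Adgre1, the F4/80 antigen, had 211, 224 and 221 CPM. Of 12 markers of monocytes 4, 6 and 10 were detected, with sums of 155, 208 and 205 CPM. With 3 or more such UMIs there were 2, 7 and 14 macrophages. Among the markers Ccr2, a chemokine receptor, had 4, 34 and 47 UMIs, Ly6c2 had 0, 0 and 13 and Chil3 had 0, 0 and 8. The list also holds F13a1, most of which sat in the cells of the Cd163 set described below. The label thus rests on a profile that all 3 libraries shared.

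C1qb and C1qc are shown because their products mark these cells. Both stayed within 2-fold of WT in either knockout, but the cells were selected on them. The promoters, from 250 bases before to 50 bases after the start of the gene, are RefSeq sequences of GRCm38.p6, at chr4:136886151-136886450 on the minus strand (C1qb) and chr4:136892865-136893164 on the minus strand (C1qc). Capitals mark the core GAGGAA, or TTCCTC read on the other strand, of the sites bound by PU.1, a transcription factor needed for macrophages.
C1qb: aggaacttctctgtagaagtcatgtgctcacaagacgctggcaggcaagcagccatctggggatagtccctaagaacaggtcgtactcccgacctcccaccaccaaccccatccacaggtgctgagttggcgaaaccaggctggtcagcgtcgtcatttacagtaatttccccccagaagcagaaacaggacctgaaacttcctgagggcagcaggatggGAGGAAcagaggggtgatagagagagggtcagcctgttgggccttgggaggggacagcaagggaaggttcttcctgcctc
C1qc: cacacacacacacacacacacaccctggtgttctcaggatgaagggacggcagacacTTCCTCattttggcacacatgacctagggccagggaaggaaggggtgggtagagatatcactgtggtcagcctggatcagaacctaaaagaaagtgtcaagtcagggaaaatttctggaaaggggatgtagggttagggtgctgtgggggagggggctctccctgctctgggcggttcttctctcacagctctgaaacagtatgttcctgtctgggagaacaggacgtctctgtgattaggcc
Of 32851 mouse promoters of this length, 28.3% hold the core on 1 strand or the other. Of the leading 20 genes 15 had a promoter sequence, and 7 of those 15 held it (Aif1, Apoe, C1qb, C1qc, Ctss, Laptm5 and Ms4a7). Such a match is a description of the letters, not a binding site.

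Macrophages were rarest in the ASF-KO-labelled library. There were 31 macrophages among 7401 kept cells in that library, 86 among 11685 in the SC35-KO-labelled library and 133 among 9288 in WT. The shares were 0.419% (0.285 to 0.594), 0.736% (0.589 to 0.908) and 1.43% (1.20 to 1.69), and the interval of WT overlapped neither of the others, while those of both knockouts overlapped at their ends. Most kept cells are rich in hormone RNA, so the share was also taken among the 814, 894 and 1589 cells that pass the same limits on hormone genes. Then it was 3.81% (2.60 to 5.36) in the ASF-KO-labelled library, 9.62% (7.77 to 11.7) in the SC35-KO-labelled one and 8.37% (7.05 to 9.84) in WT. With this denominator, added after the data were seen, the SC35-KO-labelled library was no longer below WT, while the ASF-KO-labelled one still was. Other immune cells were also fewer: T and NK cells numbered 6, 7 and 108 and B cells 9, 1 and 128 in the libraries labelled ASF-KO and SC35-KO and in WT, beside 426, 390 and 668 endothelial cells. The filter on cells had removed 40.8%, 16.1% and 9.53% of the barcodes in the same order, and its part in these shares was not tested. How many macrophages an islet holds and how many survive dissociation and capture cannot be told apart.

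**Figure D1:**
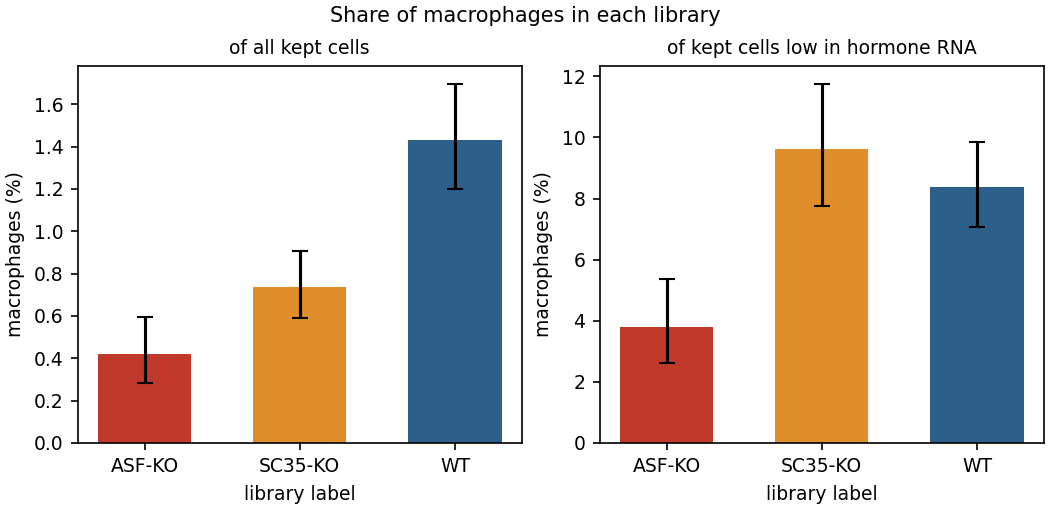
Macrophages as a share (%) of all kept cells (left) and of kept cells low in hormone RNA (right), 1 bar per library with its exact 95% interval for counting error. Bars stand at 0.419%, 0.736% and 1.43% on the left and at 3.81%, 9.62% and 8.37% on the right, so the place of SC35-KO against WT depends on the denominator.

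At the edge of the choice, 1, 0 and 3 macrophages of the libraries labelled ASF-KO and SC35-KO and of WT had 5 to 7 UMIs of the 7 genes, against medians of 49, 57 and 67 UMIs. Outside it but within the hormone limits, 8, 19 and 44 cells had 2 or more UMIs of the genes, of which 0, 4 and 10 had 2 of the genes with at least 3 UMIs. A further 11, 19 and 18 cells met the marker limits but had too much hormone RNA. No barcode was a macrophage in more than 1 library, though 2 barcodes of macrophages were also among the deposited barcodes of another library. Of all deposited barcodes, kept or not, each pair of libraries shared 32 to 45.

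Depth and insulin RNA in the macrophages differed between the libraries. A median macrophage had 3320 UMIs and 1145 genes in the ASF-KO-labelled library, 3393 UMIs and 1170.5 genes in the SC35-KO-labelled one and 4287 UMIs and 1370 genes in WT. Summed, they gave 100559, 289324 and 630208 UMIs. Insulin RNA made up 5.61%, 4.09% and 1.97% of these UMIs. Endothelial cells, which make no insulin, held 5.65%, 4.73% and 2.49%, so the macrophages were near or below them in each library. Both classes were chosen under the same limit on insulin, and whether this insulin was free RNA caught in the droplets was not tested. Because the insulin share differed between the libraries, CPM were computed on UMIs outside mitochondrial, hormone and exocrine genes. Markers of T and NK cells summed to 0, 15.2 and 30.5 CPM and those of stromal cells to 0, 22.7 and 25.5 CPM. Endothelial markers, by contrast, summed to 2298, 1065 and 256 CPM with 10 of 10 detected in each library, from 3, 4 and 4 macrophages with 3 or more such UMIs. A few macrophage barcodes thus carried endothelial RNA. Without the cells that held 3 or more UMIs of another type's markers, S100a6 and Acp2 lost their call among the 12 highest and 12 lowest genes of each comparison described below, and 2 of the 12 highest genes of the ASF-KO-labelled library were no longer measured. Scrublet marked 1, 4 and 5 of the macrophages as possible doublets, and leaving these out changed no call among the 12 highest and 12 lowest genes of either comparison. Markers of dendritic cells summed to 355, 239 and 161 CPM, mostly Siglech, and those of B cells to 322, 280 and 207 CPM, mostly Ighm.

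Summed macrophages of each knockout were compared with those of WT gene by gene. A gene counted as measured when either sum held 50 CPM and 20 UMIs of it, and it was called higher or lower at 2-fold from the median ratio of all measured genes. Against WT, 141 of 2388 measured genes were higher (5.9%) and 283 lower (11.9%) in the ASF-KO-labelled library. In the SC35-KO-labelled one, 93 of 2464 were higher (3.77%) and 121 lower (4.91%). Counts of called genes in the lists below are to be read beside these shares, and no list was tested. With CPM of all UMIs and no centring on the median, the split for the ASF-KO-labelled library moved to 84 higher and 305 lower, so that higher genes made up 21.6% of the called ones in place of 33.25%. The median gene itself lay at log2 ratios of -0.12 and -0.05 under that scaling, against -0.06 and -0.01 under the one used. Both comparisons share the WT library, so a gene that is unusual in WT moves both. Calls in the ASF-KO-labelled library rest on 31 cells.

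**Figure D2:**
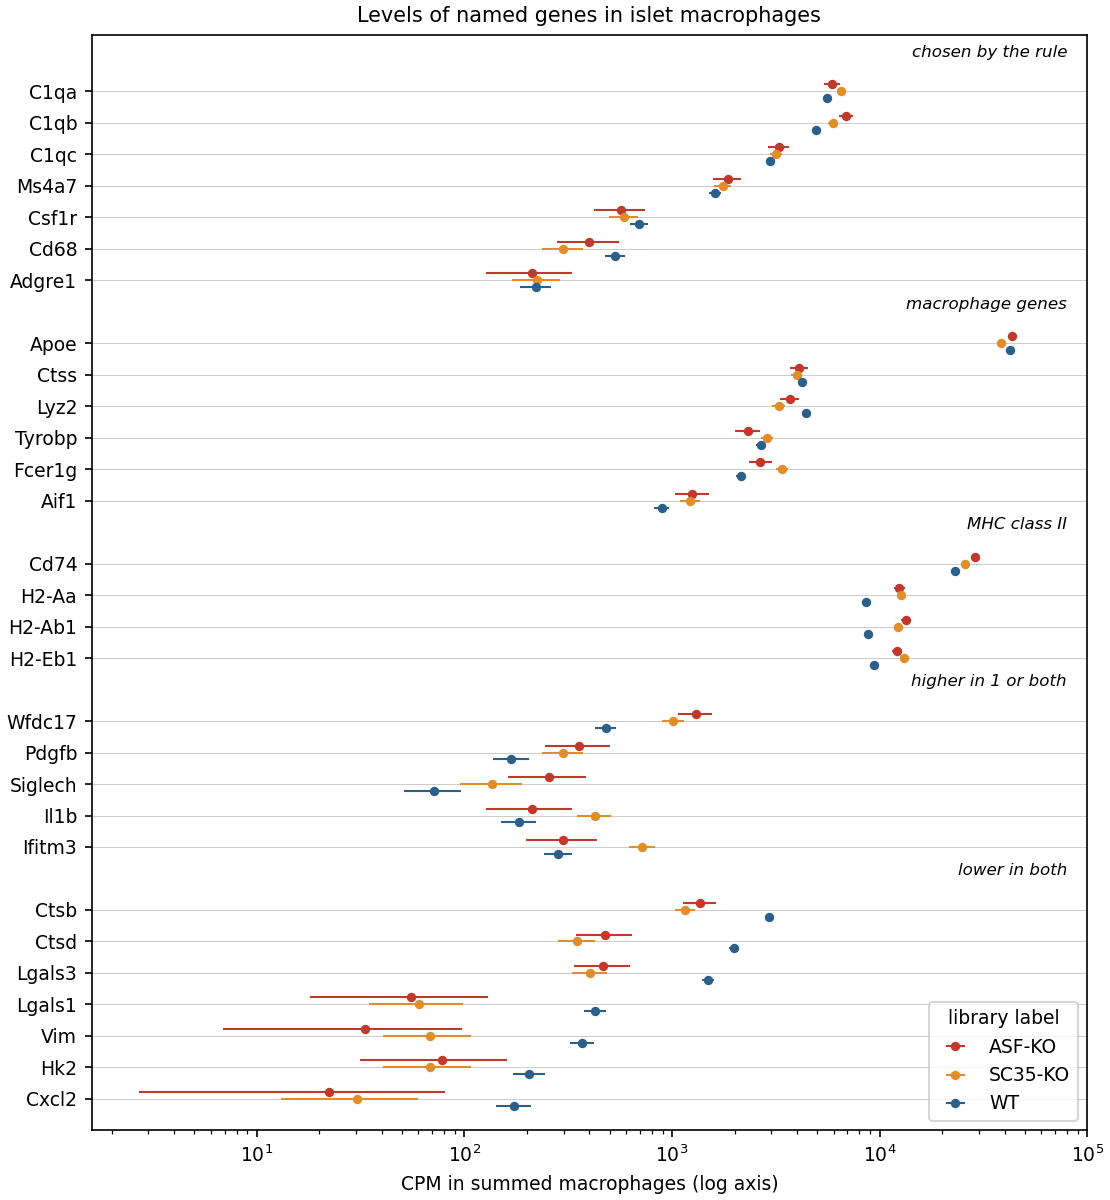
Levels of named genes in summed macrophages (CPM, log axis), 1 point per library with its exact 95% Poisson interval, for ASF-KO (top of each trio), SC35-KO and WT. The general macrophage genes lie close together in the 3 libraries, as do the genes that chose the cells, on which the cells were selected. Ctsd stands at 477 and 349 CPM in the knockouts and 1992 CPM in WT, and Lgals3 at 466 and 402 CPM against 1498 CPM.

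Measured macrophage markers outside the choice stayed within 2-fold of WT with 1 exception. All 7 genes of the choice also stayed within 2-fold in both comparisons, but the cells were selected on them, so this is a description. Of 20 further macrophage markers 19 were measured, and 0 were higher and 1, Mertk, was lower in each comparison. The median log2 ratio of the list was 0.09 in the ASF-KO-labelled library and 0.00 in the SC35-KO-labelled one. Mertk, a receptor for engulfing dead cells, had 3, 5 and 41 UMIs in the libraries labelled ASF-KO and SC35-KO and in WT, with ratios of 0.479 (0.0949 to 1.50) and 0.272 (0.0840 to 0.689). Cx3cr1, the fractalkine receptor, had 655, 898 and 604 CPM, and Trem2, a lipid-sensing receptor, had 522, 299 and 507 CPM. Of 15 transcription factors of macrophages 11 were measured. None was called in the ASF-KO-labelled library, and Runx1 was higher in the SC35-KO-labelled one, with 222, 277 and 127 CPM. Spi1, which encodes PU.1, had 444, 299 and 333 CPM.

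**Figure D3:**
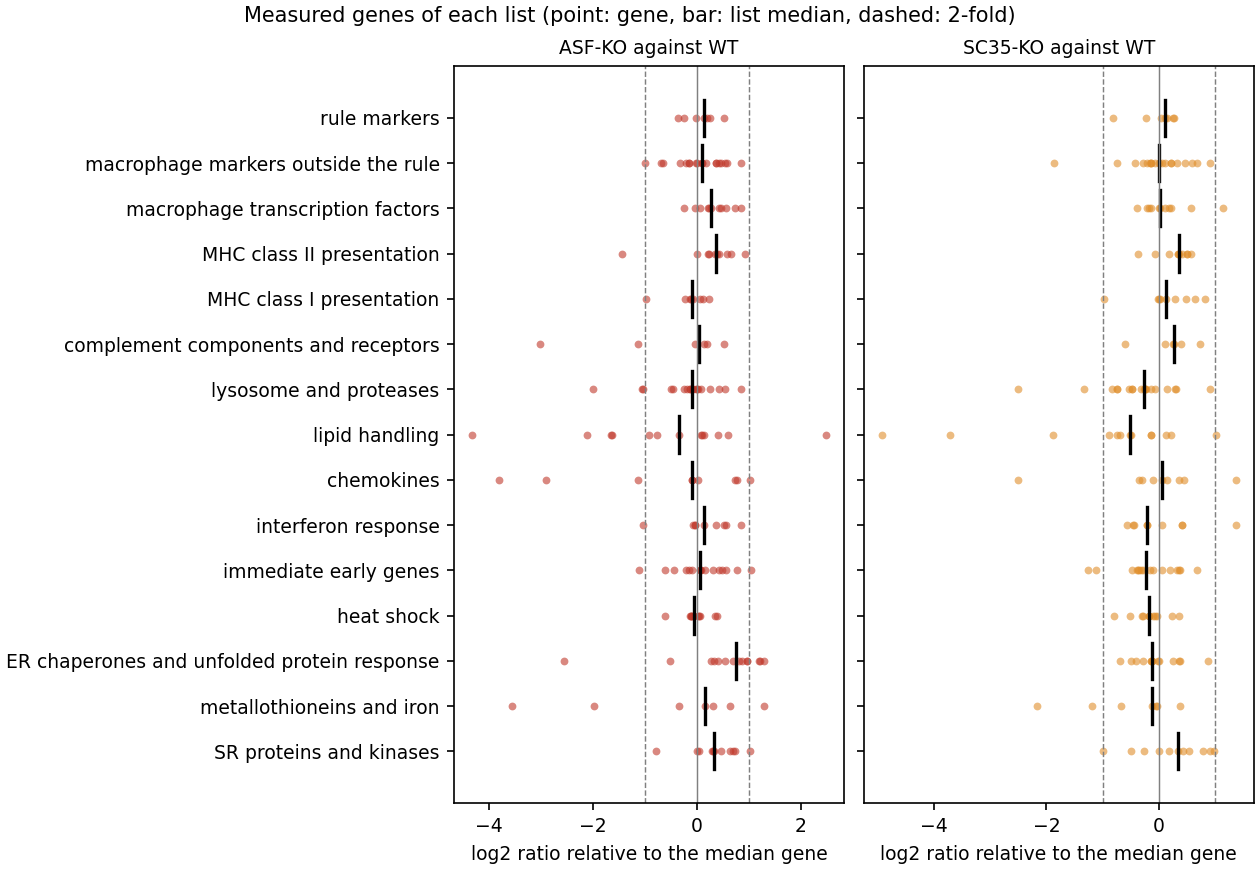
Log2 ratios to WT, relative to the median gene, of the measured genes of 15 lists in macrophages of ASF-KO (left) and SC35-KO (right), each point a gene, each bar a list median, dashed lines at 2-fold. A gene with 0 UMIs in 1 library was set to 3 UMIs there. Medians of the MHC class II list lie at 0.37 and 0.35, and the widest spread is among the lipid handling genes.

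Lysosomal proteases and galectins were among the genes that were lower in both knockouts. Ctsd, an aspartic protease of the lysosome, had 43, 92 and 1174 UMIs in the libraries labelled ASF-KO and SC35-KO and in WT, or 477, 349 and 1992 CPM. The ratios were 0.240 (0.173 to 0.325) and 0.175 (0.140 to 0.217). In all other kept cells the ratios of Ctsd were 0.747 and 0.884, so the difference was wider in the macrophages. Ctsb, a cysteine protease, had 1366, 1156 and 2942 CPM, with ratios of 0.464 and 0.393. Of 20 lysosomal genes 19 were measured. Lower were Ctsd, Ctsb and Lipa, the acid lipase, in the ASF-KO-labelled library, and Ctsd and Ctsb in the SC35-KO-labelled one, with none higher and list medians of -0.10 and -0.26. The other measured lysosomal genes stayed within 2-fold. Of all measured genes 11.9% were lower in the ASF-KO-labelled library and 4.91% in the SC35-KO-labelled one. Ctss was near even at 4097, 3984 and 4247 CPM. Psap, the precursor of the saposins, was below WT in both knockouts without a call, at 2032, 2126 and 2979 CPM.

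Galectins and vimentin were lower in both knockouts as well. Lgals3, which encodes galectin-3, a sugar-binding protein of activated macrophages, had 42, 106 and 883 UMIs or 466, 402 and 1498 CPM, with ratios of 0.311 (0.223 to 0.424) and 0.268 (0.217 to 0.328). Lgals1, which encodes galectin-1, had 5, 16 and 251 UMIs, with ratios of 0.130 (0.0420 to 0.308) and 0.142 (0.0802 to 0.236). Vim, an intermediate filament protein, had 3, 18 and 217 UMIs, with ratios of 0.0905 (0.0185 to 0.268) and 0.185 (0.108 to 0.2999). For these 3 genes the other kept cells were lower too, with ratios of 0.192 and 0.590 for Lgals3, 0.180 and 0.243 for Lgals1 and 0.497 and 0.434 for Vim.

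Sums hide how the RNA was spread over cells. Every macrophage was thinned to 2000 UMIs, which kept 24, 76 and 127 cells and left out 7, 10 and 6. Lgals3 was then found in 54.2%, 48.7% and 54.3% of macrophages of the libraries labelled ASF-KO and SC35-KO and of WT at this depth. At 1000 UMIs, with all macrophages kept, it was found in 48.4%, 26.7% (17.8 to 37.4) and 42.1%, so no order is read from these shares. Ctsd was found in 29.2%, 32.9% and 47.2%, and endothelial cells, which also make it, showed 31.3%, 22.4% and 35.4%. Lgals1 was found in 12.5%, 10.5% and 24.4% of the macrophages, against 0.531%, 0.386% and 1.63% of the endothelial cells.

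Much of the WT level of these genes sat in a few cells. In WT 9 of 133 macrophages (6.77%, 3.14 to 12.5) had UMIs of Gpnmb, a lysosomal glycoprotein of lipid-laden macrophages. In the ASF-KO-labelled library none of 31 had, which allows a share of up to 9.68% (3 counts of the total), and in the SC35-KO-labelled one none of 86 had, which allows up to 3.49%. The upper ends of the exact intervals are 11.2% and 4.20%. These limits count cells with a UMI of Gpnmb, and the macrophages of both knockouts were shallower than those of WT. Gpnmb was looked at because its values had been seen, so these counts describe the cells and test nothing. At a depth of 2000 UMIs the counts were 0 of 24, 0 of 76 and 7 of 127. The limit for the ASF-KO-labelled library lies above the WT share, so 31 macrophages could not show such cells to be rarer there, and the limit for the SC35-KO-labelled one lies within the WT interval.

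The 9 cells differed from the other WT macrophages in much of their profile. They held 66.6% of the Ctsd UMIs of WT macrophages, 51.4% of Lgals3, 57.0% of Lgals1, 47.5% of Vim and 42.4% of Ctsb, with 13.6% of all UMIs. Ctsd reached 9602 CPM in them, against 772 CPM in the other WT macrophages. Lgals3 stood at 5574 against 845 CPM, Ctsb at 9025 against 1967 CPM and Lgals1 at 1756 against 213 CPM. Syngr1, a vesicle membrane protein, had 81.1% of its WT UMIs there, and Apoc2, an apolipoprotein that activates lipoprotein lipase, had 59.3%. Fabp5, a fatty acid carrier, had 0, 6 and 411 UMIs in the libraries labelled ASF-KO and SC35-KO and in WT, but 1 WT cell held 80.8% of the WT count. MHC class II was low in them: Cd74, H2-Aa, H2-Ab1 and H2-Eb1 together took a median of 0.731% of their UMIs, against 5.67% in the other WT macrophages. C1qa, a gene of the choice, was near its usual level in sum, as they held 12.2% of its WT UMIs. The deepest of them alone held 130 of these UMIs, and the others between 20 and 47 each. The 9 cells were also deep, with 4627 to 17229 UMIs (median 9561), against a median of 4085.5 UMIs in the other WT macrophages.

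**Figure D4:**
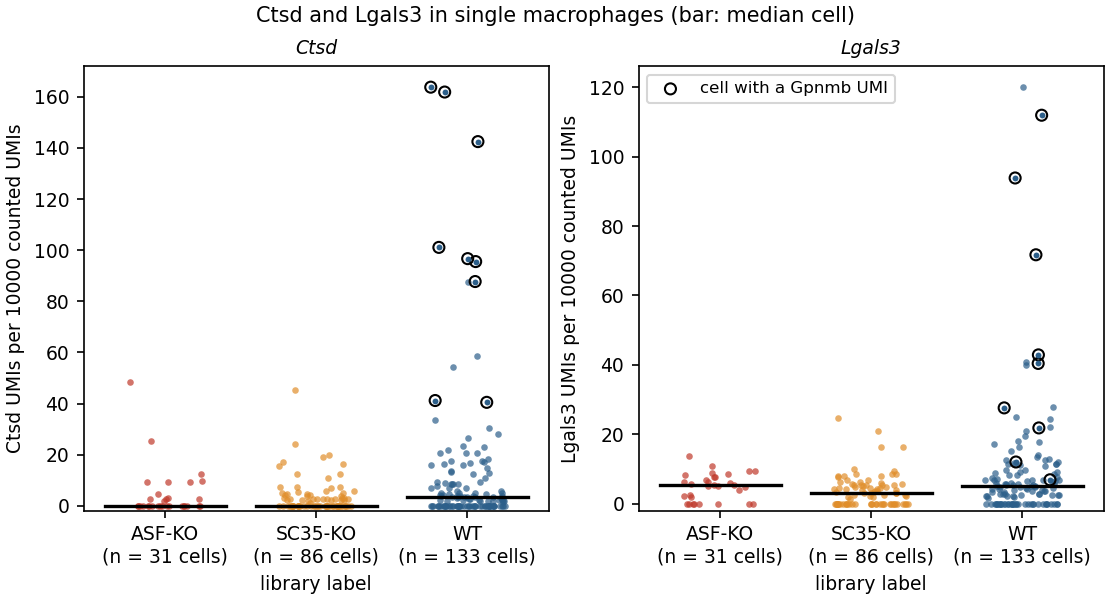
UMIs of Ctsd (left) and Lgals3 (right) per 10000 counted UMIs in each macrophage of ASF-KO, SC35-KO and WT, with a bar at the median cell and rings around cells with a Gpnmb UMI. Ringed cells are found in WT alone and lie between 40.5 and 163.8 for Ctsd, where the highest cells of the libraries labelled ASF-KO and SC35-KO reach 48.2 and 45.1.

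Promoters of 3 genes high in these cells are shown, since their RNA was found together there. The sequences are RefSeq GRCm38.p6, from 250 bases before to 50 after each start, at chr7:142387778-142388077 on the minus strand (Ctsd), chr14:47373610-47373909 on the plus strand (Lgals3) and chr6:49036268-49036567 on the plus strand (Gpnmb). Capitals mark CACGTG, an E-box of the kind bound by the lysosomal regulators TFEB, TFE3 and MITF, and TGACTCA, or TGAGTCA when read on the other strand, the AP-1 motif.
Ctsd: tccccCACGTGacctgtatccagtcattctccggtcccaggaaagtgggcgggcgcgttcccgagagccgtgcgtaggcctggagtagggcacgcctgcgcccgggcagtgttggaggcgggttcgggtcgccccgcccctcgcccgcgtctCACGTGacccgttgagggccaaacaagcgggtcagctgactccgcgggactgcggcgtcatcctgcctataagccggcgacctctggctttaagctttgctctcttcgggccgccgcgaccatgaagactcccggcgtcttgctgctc
Lgals3: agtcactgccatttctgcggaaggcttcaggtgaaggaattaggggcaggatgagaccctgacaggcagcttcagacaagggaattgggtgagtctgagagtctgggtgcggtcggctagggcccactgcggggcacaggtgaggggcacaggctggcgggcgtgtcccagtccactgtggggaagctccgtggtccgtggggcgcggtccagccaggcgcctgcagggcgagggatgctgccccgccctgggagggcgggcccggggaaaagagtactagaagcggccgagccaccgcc
Gpnmb: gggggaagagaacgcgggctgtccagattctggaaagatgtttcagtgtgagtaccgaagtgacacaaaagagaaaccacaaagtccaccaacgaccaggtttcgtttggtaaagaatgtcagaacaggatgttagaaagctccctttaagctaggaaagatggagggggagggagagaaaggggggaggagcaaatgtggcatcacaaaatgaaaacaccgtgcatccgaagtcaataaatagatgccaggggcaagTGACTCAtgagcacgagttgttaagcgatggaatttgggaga
Ctsd held 2 copies of CACGTG, which 7.15% of all 32851 promoters hold at least once, and Gpnmb held 1 AP-1 motif, which 5.20% hold. Lgals3 held neither, nor the PU.1 core, within this window. Of the 12 lowest named genes of the SC35-KO-labelled library 10 had a promoter sequence, and Ctsd alone of them held the E-box. Of the 12 lowest of the ASF-KO-labelled one 8 had a promoter sequence, and Ctsd and S100a6 held it.

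Leaving out the 9 cells changed which genes stayed lower. Ctsd then had a ratio of 0.619 (0.441 to 0.849) in the ASF-KO-labelled library, no longer past 2-fold, and 0.452 (0.356 to 0.568) in the SC35-KO-labelled one, still lower. Lgals3 did the same, with 0.552 and 0.476. Among the remaining WT macrophages 1 cell, with 0 UMIs of Gpnmb, held 65 UMIs of Ctsd and 89 of Lgals3. Both SC35-KO ratios lie close to the 2-fold limit, and whether they stay past it without that cell was not tested. Ctsb was no longer lower in either, at 0.694 and 0.588. Lgals1, at 0.261 and 0.285, Vim, at 0.148 and 0.304, and Cxcl2, at 0.119 and 0.162, remained lower in both. Of the 283 lower genes of the ASF-KO-labelled library 225 were called again, and of the 121 of the SC35-KO-labelled one 90 were. This comparison was added after the data were seen.

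Several lower genes did not depend on the 9 cells. Nmt1, which attaches myristate to proteins, had 189, 197 and 563 CPM in the libraries labelled ASF-KO and SC35-KO and in WT, and its ratios of 0.335 and 0.350 became 0.332 and 0.346. In thinned cells it was found in 20.8%, 30.3% and 62.2%. The other kept cells showed ratios of 0.466 and 0.432 for Nmt1, and thinned endothelial cells held it in 13.8%, 14.7% and 35.0%. The Nmt1 difference was thus not confined to the macrophages. Hk2, the hexokinase of activated cells, had 77.7, 68.2 and 205 CPM, with 0.372 and 0.327 after leaving the 9 cells out. Cxcl2, a chemokine for neutrophils, had 2, 8 and 102 UMIs in 1, 4 and 24 cells. Pltp, a phospholipid transfer protein, had 4, 13 and 106 UMIs.

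The remaining low genes differed more between the comparisons, and that difference was not tested. Lower in the ASF-KO-labelled library and within 2-fold in the SC35-KO-labelled one were Hes1, a repressor downstream of Notch, with 44.4, 171 and 316 CPM, and Cstb, an inhibitor of cathepsins, with 33.3, 148 and 270 CPM. Acp2, a lysosomal acid phosphatase, had 0, 15 and 54 UMIs, at least 2.75-fold lower in the ASF-KO-labelled library, with a library at 0 set to a floor of 3 UMIs. S100a6, a calcium-binding protein, had 0, 12 and 57 UMIs, at least 2.90-fold lower there and also lower in the SC35-KO-labelled one, at 0.470 (0.230 to 0.887). Without cells holding other types' markers its log2 ratio in the ASF-KO-labelled library was 0.0372, and stricter hormone limits or leaving out the Gpnmb cells also ended that call. Acp2 lost its call there under the first and the second of these settings. Pld3, a lysosomal nuclease, had 1, 12 and 92 UMIs and was lower in both, with ratios of 0.0711 (0.00178 to 0.406) and 0.291 (0.145 to 0.534). Syngr1 had 1, 0 and 90 UMIs, with a ratio of 0.0727 (0.00182 to 0.415) in the ASF-KO-labelled library, and was at least 13.4-fold lower in the SC35-KO-labelled one. Most of its WT UMIs sat in the Gpnmb cells, and without those cells Syngr1 was no longer measured in either comparison. Ddit4, an inhibitor of mTORC1, had 77.7, 18.9 and 88.2 CPM and was lower in the SC35-KO-labelled library.

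Genes of MHC class II presentation took the most CPM of all 32 gene lists, with sums of 72798, 69722 and 55777 CPM in the libraries labelled ASF-KO and SC35-KO and in WT. Cd74 had 28922, 25747 and 22975 CPM. H2-Aa had 12446, 12663 and 8629 CPM, and its ratios were 1.44 (1.35 to 1.54) and 1.47 (1.40 to 1.53). H2-Ab1 had ratios of 1.53 and 1.39 and H2-Eb1 of 1.30 and 1.40. These lie above 1 beyond counting error but under the 2-fold used for a call, and without the 9 cells those of H2-Aa were 1.28 and 1.30. Of 14 class II genes 10 were measured and 0 were higher, with list medians of 0.37 and 0.35 on the log2 scale. Ifi30, a thiol reductase that unfolds antigen, was lower in the ASF-KO-labelled library, with 155, 334 and 438 CPM. Cell by cell, the list took a median of 8.18%, 7.22% and 6.55% of UMIs, with single cells between 0.115% and 11.97%. MHC class I showed no call, with 8 and 9 genes measured. B2m had 2265, 3343 and 2179 CPM and H2-D1, a heavy chain, 1477, 1399 and 1303 CPM.

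Genes higher in the ASF-KO-labelled library were led by Hist1h1e, a linker histone, with 35, 8 and 30 UMIs in the libraries labelled ASF-KO and SC35-KO and in WT. Its ratio of 7.63 (4.55 to 12.9) stood beside 3.09 in the other kept cells. Lars2, the leucyl-tRNA synthetase of mitochondria, had 2942, 497 and 1003 CPM, so it was higher in the ASF-KO-labelled library and lower in the SC35-KO-labelled one. The other kept cells showed ratios of 1.51 and 0.459 for Lars2. Wfdc17, a small secreted protein with a WAP domain, had 1299, 1016 and 480 CPM and was higher in both, with ratios of 2.71 (2.16 to 3.37) and 2.12 (1.78 to 2.51). Siglech, a sialic acid lectin that is also on the list of dendritic markers, had 255, 136 and 71.3 CPM in 13, 26 and 29 cells, with ratios of 3.58 (2.06 to 6.10) and 1.92 (1.19 to 3.06). Csf2ra, the alpha chain of the GM-CSF receptor, had 544, 326 and 231 CPM. Hpgd, which degrades prostaglandins, had 466, 254 and 198 CPM. Anxa3, an annexin, had 266, 144 and 89.9 CPM. It is more widely found in endothelial cells, with 59.7%, 65.6% and 63.9% of them at 2000 UMIs against 33.3%, 21.1% and 8.66% of macrophages, and the endothelial markers in the macrophages summed to 2298, 1065 and 256 CPM. Their part in the Anxa3 level was not tested. For all of these except Lars2 and Hist1h1e the SC35-KO-labelled library lay between the other two. Macf1, Mtdh, Spag9, St3gal6 and Sept7 made up the rest of the 12 named, with ratios of 2.69 to 3.17.

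In the SC35-KO-labelled library the higher genes included Il1b and Ifitm3. Il1b, which encodes interleukin-1 beta, had 19, 112 and 108 UMIs in the libraries labelled ASF-KO and SC35-KO and in WT, or 211, 424 and 183 CPM. Its ratios were 1.15 (0.667 to 1.89) and 2.32 (1.76 to 3.05), the second past 2-fold. That call was lost under stricter hormone limits, at a log2 ratio of 0.88, and without the Gpnmb cells, at 0.99. In thinned cells Il1b was found in 29.2%, 39.5% (28.4 to 51.3) and 27.6% (20.01 to 36.2) of macrophages, and in endothelial cells in 0%, 0.386% and 0%. Ifitm3, a membrane protein that blocks viral entry, had 300, 716 and 282 CPM with a ratio of 2.54 (2.05 to 3.15). With stricter markers the call was lost, at a log2 ratio of 0.71. At 2000 UMIs it was found in 33.3%, 31.6% and 22.05% of macrophages and in 77.7%, 87.3% and 84.6% of endothelial cells. Without the macrophages that held 3 or more UMIs of another type's markers, endothelial ones included, the Ifitm3 call was kept. The part of endothelial RNA in cells under that limit was not tested. Pou2f2, the transcription factor Oct-2, had 278, 478 and 200 CPM, and Gatm, an enzyme of creatine synthesis, 244, 311 and 134 CPM. Dnase1l3, a secreted nuclease, had 2, 35 and 25 UMIs. H2-M2, a non-classical class I gene, had 289, 326 and 137 CPM and was higher in both. Rnaset2a, with 15, 93 and 71 UMIs, and Rnaset2b, with 14, 43 and 36, are near-identical copies, so their counts are uncertain one by one. Both ratios, 2.93 and 2.67, stood beside 2.17 and 2.24 in the other kept cells. Hypk, Sft2d1 and Hivep3 completed the 12.

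Other inflammatory genes did not follow Il1b. Of 16 cytokine and inflammasome genes 5 were measured, with Il1b the single call. Tnf, the tumour necrosis factor gene, had 4, 25 and 47 UMIs, or 44.4, 94.8 and 79.8 CPM in the libraries labelled ASF-KO and SC35-KO and in WT. Of 16 chemokines 9 were measured. Ccl3 was higher and Cxcl2, Cxcl10 and Ccl8 lower in the ASF-KO-labelled library, while Pf4 was higher and Cxcl2 lower in the SC35-KO-labelled one. Ccl3, a chemokine that draws leukocytes, had 344, 136 and 176 CPM, and Ccl4 had 677, 462 and 422 CPM. Ccl3 passes 2-fold only relative to the median gene, since its ratio was 1.95, and the same holds for Egr1 at 1.99. Cxcl16, a scavenger receptor and chemokine, was even at 711, 811 and 787 CPM. Of 21 interferon response genes 9 were measured, with Irf7 lower in the ASF-KO-labelled library (0, 16 and 42 UMIs) and Ifitm3 higher in the SC35-KO-labelled one. The 4 measured genes of NF-kB feedback had no call, and Nfkbia, the inhibitor of NF-kB, had 211, 235 and 366 CPM.

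Stress and handling responses were mostly alike. Of 12 heat shock genes 11 were measured and 0 were called in either comparison. Hspa8 had 1788, 1948 and 2014 CPM in the libraries labelled ASF-KO and SC35-KO and in WT. Of 17 immediate early genes, which can rise during dissociation, 16 were measured. Egr1 was higher and Ier3 lower in the ASF-KO-labelled library, and Atf3 and Ier3 were lower in the SC35-KO-labelled one. Egr1 had 489, 315 and 246 CPM and Fos 1021, 641 and 787 CPM. Chaperones of the endoplasmic reticulum ran higher in the ASF-KO-labelled library, with a list median of 0.75 over 14 measured genes, against -0.12 in the SC35-KO-labelled one and 0 over all measured genes. Herpud1, Dnajb9 and Atf4 passed 2-fold, Pdia4 was lower on 1 UMI, and Hspa5, the chaperone BiP, had 1155, 493 and 660 CPM. The other kept cells of that library had a ratio of 2.54 for Hspa5, where hormone cells are most of the cells, and the part of free RNA in it was not tested.

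Metallothioneins were lower in both knockouts. Mt1 had 455, 811 and 1865 CPM in the libraries labelled ASF-KO and SC35-KO and in WT, with ratios of 0.244 and 0.435. Mt2 had 2, 16 and 161 UMIs. The other kept cells held 395, 3669 and 10304 CPM of Mt1, more than the macrophages in the SC35-KO-labelled library and in WT, so free RNA moves with this result and its part was not tested. Ferritin was even, with 15044, 13467 and 13972 CPM of Fth1.

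Engulfment, lipid and growth factor genes held single changes. Of 18 scavenger and engulfment receptors 7 and 8 were measured in the 2 comparisons, with list medians of -0.31 and -0.62. Mertk and Cd163 were lower in both, and Cd209f was higher in the SC35-KO-labelled library on 38 UMIs from 4 cells. Of 16 lipid handling genes 13 were measured, with medians of -0.34 and -0.52. Fabp5, Gpnmb and Lgals3 were lower in both. Gpnmb had 0, 0 and 89 UMIs, those of WT from 9 cells. With 0 set to 3 UMIs its sums were at least 4.53-fold and 13.3-fold lower. These folds count UMIs and not cells, so they do not show that cells with Gpnmb were rarer, and the limits given above stay. Plin2, which coats lipid droplets, was lower in the ASF-KO-labelled library, with 178, 402 and 580 CPM. Fabp4 was higher there on 29 UMIs from 2 cells, and it is also a gene of endothelial cells. Cd9, a tetraspanin, was higher in the SC35-KO-labelled library. Among 16 growth and tissue factors 6 were measured. Pdgfb, a platelet-derived growth factor chain, had 355, 299 and 168 CPM with ratios of 2.12 (1.37 to 3.18) and 1.78 (1.31 to 2.42), a call in the ASF-KO-labelled library. Igf1, a growth factor made by macrophages, had 2, 7 and 34 UMIs, with ratios of 0.385 (0.0448 to 1.50) and 0.460 (0.172 to 1.05). Mmp14, a membrane protease, was lower in the SC35-KO-labelled library. Among 14 complement genes 6 were measured, with C5ar1 and Cfp lower in the ASF-KO-labelled library on 2 and 1 UMIs. The 3 measured purinergic and danger sensors had no call.

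The other SR proteins were measured as well, since the targeted genes belong to them. Of 16 SR proteins and kinases 11 were measured, with medians of 0.32 and 0.35. Srsf6 was higher in the ASF-KO-labelled library, with 122, 83.4 and 62.8 CPM in the libraries labelled ASF-KO and SC35-KO and in WT, and no gene was lower. Its ratio of 1.95 passes 2-fold only relative to the median gene.

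A second kind of macrophage was present in each library. It was found by Cd163, a haemoglobin scavenger receptor, with Ccl8, Folr2, Pf4, Cd209f, Clec10a, Lyve1 and Timd4, a set chosen after the values were seen. At 10 or more UMIs of the set there were 1 of 31 cells (3.23%, 0.0816 to 16.7) in the ASF-KO-labelled library, 4 of 86 (4.65%, 1.28 to 11.5) in the SC35-KO-labelled one and 6 of 133 (4.51%, 1.67 to 9.56) in WT. The shares could not be told apart at this depth. These 11 cells held all 260 UMIs of Ccl8, all of Cd209f and Folr2 and 78.0% of Pf4 in the macrophages. Those genes belong to the set that chose the cells, so such shares largely follow from the choice. Of genes outside the set, the 11 cells held all UMIs of Cd209b. They also held 97.2% of Pla2g2d, a secreted phospholipase, and 95.5% of F13a1, a coagulation factor that is also on the list of monocyte markers. Class II was low, with 2971 CPM of H2-Aa in them against 10544 CPM in the other macrophages, and 5847 against 25407 CPM of Cd74. The calls on Ccl8, Cd163, Cd209f and Pf4 above therefore rest mostly on these 11 cells.

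**Figure D5:**
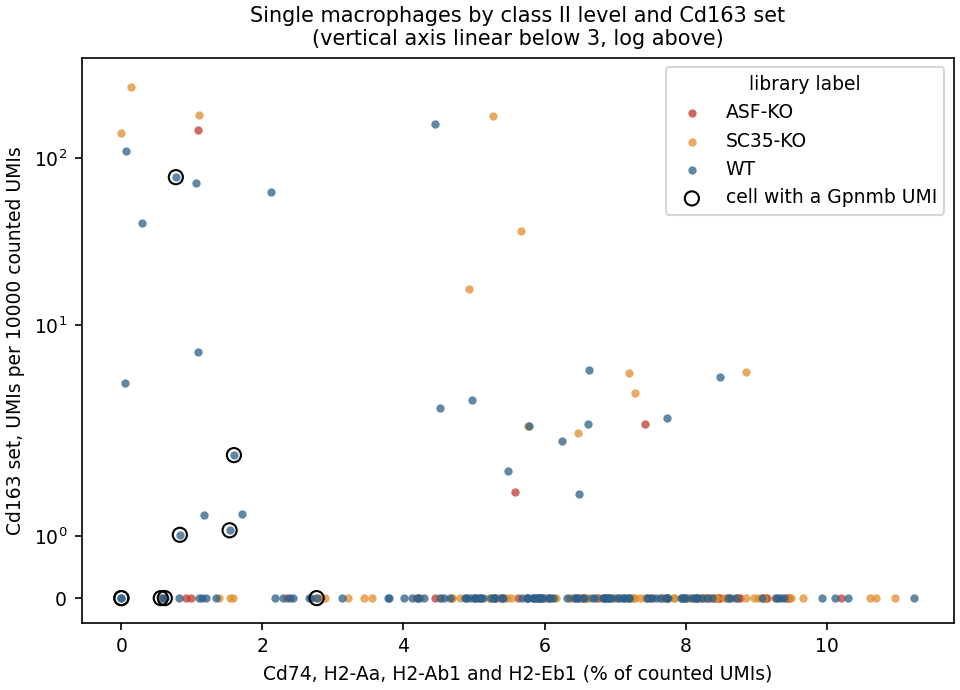
Single macrophages of ASF-KO, SC35-KO and WT by the share of Cd74, H2-Aa, H2-Ab1 and H2-Eb1 in their counted UMIs (%, horizontal) and by UMIs of the Cd163 set per 10000 (vertical, linear below 3 and log above), with rings around cells with a Gpnmb UMI. Most cells lie at the lower right, high in class II and at 0 for the set, while ringed cells and most cells high in the set lie at the left.

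Low class II was not confined to those kinds. Cells with under 2% of UMIs in the 4 class II genes numbered 4 of 31, 6 of 86 and 21 of 133 in the libraries labelled ASF-KO and SC35-KO and in WT. In the ASF-KO-labelled library 1 of them was high in the Cd163 set. The others there had 10, 16 and 8 UMIs of the 7 genes of the choice, against a median of 49, and 0 or 1 UMIs of Lyz2. Some in WT had 10 or fewer, against a median of 67, so part of these cells were only weakly marked as macrophages. In WT 8 of the 21 had Gpnmb and 4 were high in the Cd163 set. One WT cell, the deepest at 17229 UMIs, belonged to both sets. Dividing cells were few: 0, 1 and 2 cells of the choice had 10 or more UMIs of Mki67, Top2a, Cdk1, Birc5, Ccnb1, Ccnb2, Ccna2 and Rrm2, a set also chosen after the values were seen. The 2 WT cells, with 6859 and 12585 UMIs, had 0 and 1 UMIs of Apoe and 0 of Lyz2. They held 19 and 23 UMIs of the genes of the choice, so the macrophage profile was weak in them. Of 15 listed cell cycle genes 3 were measured, and Tubb5, a tubulin, was lower in the ASF-KO-labelled library.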

How the data were processed

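Droplet 3' RNA-seq libraries, 1 per group, were used. Per the labels' protocols, the kit was Chromium 3' v3. Cell Ranger 5.0.0, Seurat, STAR and the build mm10 stand in the submitters' processing notes. The deposited files hold raw UMI counts for 32285 genes per barcode, with no normalization. The rule for cells is given above. UMIs were summed over the macrophages of each library and scaled to 1000000 UMIs (CPM) outside 13 mitochondrial, 8 hormone and 17 exocrine genes. Sums have exact Poisson, shares Clopper-Pearson and ratios conditional binomial intervals. A sum of 0 was set to 3 UMIs. Doublets stayed in and were left out with Scrublet as an alternative. Named were the 7 marker genes and Lyz2, the 12 highest and 12 lowest genes per comparison by the nearer bound, after leaving out mitochondrial, ribosomal protein, sex-linked and unnamed genes, genes higher in other cells and genes with over 25% of UMIs in 1 cell. Named too were the extremes and the 3 highest genes of each list, and the 20 leading genes. A few genes that this rule names are not reported here. Cells and lists were chosen with earlier results of these data known. Tools were python 3.11.15, numpy 2.4.6, pandas 2.3.3, scipy 1.17.1, scanpy 1.11.5 and matplotlib 3.10.9, and the statistics were tested on simulated data.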

Additional observations from a re-analysis of the deposited data

How the results depend on the processing

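No paired analysis was possible because each group has 1 library. Alternatives were stricter markers, a stricter cell filter, Scrublet, stricter hormone limits, leaving out cells with markers of other types, other scalings, the mean of cells, leaving out the deepest cell, other floors and, added after the data were seen, leaving out the Gpnmb or the Cd163 set cells and another denominator. With insulin under 5% and Gcg, Sst and Ppy each under 2% the share was 0.203% (15 cells) in the ASF-KO-labelled library and 0.488% in the SC35-KO-labelled one. With at least 1000 genes, 2000 UMIs and at most 10% mitochondrial UMIs it was 0.541% in the SC35-KO-labelled one. Of cells low in hormone RNA the shares were 3.81%, 9.62% and 8.37% in the libraries labelled ASF-KO and SC35-KO and in WT. With CPM of all UMIs, 84 genes were higher in the ASF-KO-labelled library. A floor of 20 CPM and 10 UMIs gave 453 higher and 797 lower genes there and 348 and 454 in the SC35-KO-labelled one, and a floor of 200 CPM and 40 UMIs gave 19 and 53, and 19 and 24, as more or fewer genes were then measured. Of the main counts and shares 55 recomputed values moved little and 15 moved. Among genes and list medians 2208 moved little and 238 moved. Syngr1 was no longer measured in either comparison without the Gpnmb cells. S100a6 turned to a log2 ratio of 0.0372 in the ASF-KO-labelled library without cells holding markers of other types; the cause was not tested. Csf2ra (stricter hormone limits, mean of cells, without the deepest cell), Acp2 and S100a6 (stricter hormone limits, without cells of other markers), Lgals3 in the ASF-KO-labelled library and Ctsb in the SC35-KO-labelled one (mean of cells), Ifitm3 (stricter markers), Wfdc17 in the SC35-KO-labelled library (stricter cell filter, without the Cd163 set), Il1b (stricter hormone limits, without Gpnmb cells), S100a6 (also without Gpnmb cells) and Pld3 in the SC35-KO-labelled one (without Gpnmb cells) fell short of 2-fold there.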

Other observations

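C1qa was also found in hormone cells, at a far higher level than the other C1q chains. Insulin-rich cells had 117 CPM of C1qa in the ASF-KO-labelled library, 165 CPM in the SC35-KO-labelled one and 87.5 CPM in WT, beside 3.59, 5.65 and 5.69 CPM of C1qb. The ratio of C1qa to C1qb UMIs was 32.6, 29.3 and 15.4 in them and 0.855, 1.10 and 1.12 in the macrophages. Cells with 20% or more of UMIs from Gcg had ratios of 71.2, 78.5 and 22.2. Endothelial cells held 3.72, 4.83 and 8.62 CPM of C1qa. The source of the C1qa counts in hormone cells was not tested.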
